A study of Homo sapiens with 2 samples.

Results

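EWSR1 and 9 genes of the ETS transcription factor family were followed in a CUT&Tag experiment on EWS-FLI. The cells were TC32, a long-established line of Ewing sarcoma, given siEWS-FLI or siNEG. The ETS genes were FLI1, ERG, ETV1, ETV4, ETS1, ETS2, ETV6, GABPA and ELF1. They are 10 of 20037 protein-coding genes placed by RefSeq on GRCh38.p14. For each gene, every interval of the deposited peak lists that lay inside it or within 200 kb of either end was taken. This gave 14 of 6370 intervals in TC32 cells given siEWS-FLI and 39 of 16284 in TC32 cells given siNEG, with an interval in 2 windows counted once. CUT&Tag uses an antibody to tether a transposase, and reads therefore gather around the tethered protein. With 1 library per group there was no replicate check, and no difference was tested. The labels do not spell out siNEG and do not name the antibody, and the level of the fusion was not measured by these data.

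ETS factors share a DNA-binding domain that reads a GGAA core. In Ewing sarcoma a chromosome exchange joins the amino-terminal part of EWSR1, an RNA-binding protein of the FET family, to the DNA-binding part of an ETS factor. FLI1 is the usual partner, ERG the next, and ETV1 and ETV4 are rare ones. The fusion is known to bind runs of GGAA repeats as well as ordinary ETS sites. GABPA and ELF1 are ETS factors known from the promoters of widely expressed genes and are not EWSR1 partners, so they serve as the contrast.

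Values are summit pileups, the raw number of reads stretched to 200 bases that cover the summit, with exact 95% Poisson intervals. PCR reads without molecular identifiers are not independent molecules, so all intervals cover counting error only. The siEWS-FLI library was the shallower of the 2. It held 1600042 reads outside a window on the mitochondrial genome, against 2848847 with siNEG, a ratio of 0.562 that rests on an assumed genome size. The smallest pileup called in either library was 4 reads, and the median was 5 with siEWS-FLI and 8 with siNEG. An interval that was not called is not shown to be empty.

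A siEWS-FLI interval lay in 8 of the 10 windows, against 74.0% of all protein-coding genes, and a siNEG interval in 10 of 10, against 90.9%. The median member window held 1.5 siEWS-FLI and 3 siNEG intervals, against medians of 1 and 4 over all genes. Per megabase of window the member medians were 2.58 and 5.67 intervals, against 2.49 and 9.41 over all genes. The strongest summit of a window had a median of 5 reads with siEWS-FLI and 15.5 with siNEG over the members, against 6 and 22 over all genes. Within 10 kb of the gene the siNEG order was the other way, with a member median of 17 intervals per megabase against 7.15 over all genes, and a strongest summit of 10.5 against 5 reads. These windows include the gene body, which in the members ran from 18.5 kb at ETV4 to 295 kb at ERG. Gene length was not matched between the members and all genes. Of the 14 siEWS-FLI intervals 12 were exactly 200 bases wide, the narrowest listed, against 71.4% of the whole list. The smallest pileup, 4 reads, was that of 8 of the 14 and of 2673 of all 6370.

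Most siNEG intervals of the member windows had no siEWS-FLI counterpart. Intervals of the 2 libraries counted as shared if they had 1 base or more in common. Of the 14 siEWS-FLI intervals 6 were shared (42.9%, exact binomial 95% interval 17.7 to 71.1), against 41.1% of all siEWS-FLI intervals. Of the 39 siNEG intervals 6 were shared (15.4%, 5.86 to 30.5), against 15.6% of all siNEG intervals. Both shares are near those of the whole lists, so sharing did not mark the members out. The shared intervals lay in the windows of ERG, ETV1, ETV4, GABPA and ELF1, 5 of 10 members, against 51.9% of all genes with a shared interval within 200 kb.

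**Figure D1:**
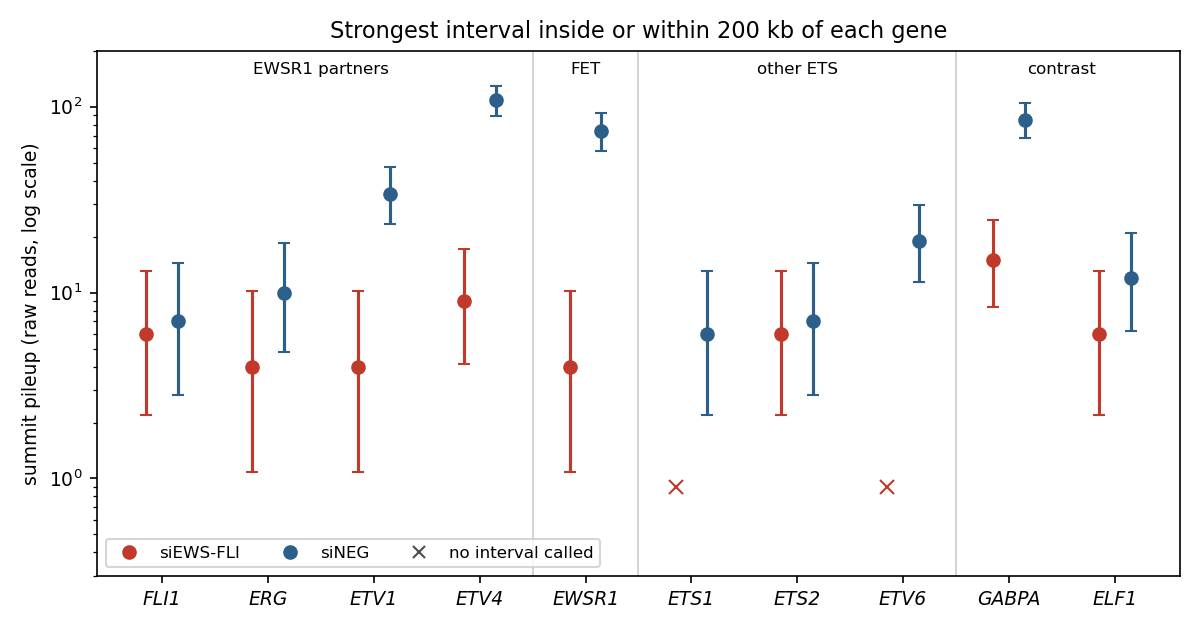
Summit pileup of the strongest interval inside or within 200 kb of each gene (raw reads, log axis), siEWS-FLI in red at left and siNEG in blue at right of each gene; bars are exact 95% Poisson intervals, and a cross marks a window with no interval called. The siNEG values run from 6 reads at ETS1 to 108 at ETV4, and no siEWS-FLI value exceeds the 15 reads at GABPA.

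Among the EWSR1 partners, FLI1 and ERG carried little signal in either library. FLI1, normally a factor of blood and endothelial cells, lies on chromosome 11 (128685132 to 128813267). No siEWS-FLI interval lay inside FLI1, and the only one in its window had 6 reads (2.2 to 13.1) at chr11:128870203-128870402, 57.1 kb from FLI1 and 3.10 kb from KCNJ1, a potassium channel gene. With siNEG, the interval inside FLI1 at chr11:128790324-128790530 had 7 reads (2.81 to 14.4). The other siNEG intervals of the window had 6 reads inside ETS1 and 4 reads near TP53AIP1. None of these positions was called in the other library, and the Poisson intervals of the strongest summits overlap widely. ERG, an endothelial factor, lies on chromosome 21 (38367261 to 38661783) and had no interval inside its 295 kb in either library. Its window held a shared site 43.2 kb away, nearest to KCNJ15, another potassium channel gene. That site had 4 reads (1.09 to 10.2) with siEWS-FLI at chr21:38324020-38324219 and 10 reads (4.80 to 18.4) with siNEG at chr21:38323892-38324205. The ratio was 0.4, siEWS-FLI over siNEG, with a counting interval of 0.0916 to 1.39.

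ETV1 and ETV4 belong to the PEA3 subgroup of ETS factors, known as targets of receptor tyrosine kinase signalling. ETV1, on chromosome 7 (13891229 to 13991425), had a shared interval inside the gene, 66.1 kb downstream of the nearest RefSeq start site. It had 4 reads (1.09 to 10.2) with siEWS-FLI at chr7:13920202-13920401 and 15 reads (8.40 to 24.7) with siNEG at chr7:13920114-13920514, with summits 43 bases apart. The ratio was 0.267 (0.0644 to 0.837), and this counting interval includes 0.562, the ratio of the reads outside the mitochondrial window. Both other siNEG intervals of ETV1 were called with siNEG alone. One, at chr7:13849461-13850580, lay 40.9 kb outside the gene and had a summit of 34 reads (23.5 to 47.5) and another of 18. The other, at chr7:13990413-13990668, had 10 reads (4.80 to 18.4) with its summit 173 bases downstream of a start site.

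The ETV4 window on chromosome 17 held the strongest site of the whole set, but at a neighbour. At the start of DHX8, an RNA helicase gene of the splicing machinery 44.0 kb from ETV4, the summit had 9 reads (4.12 to 17.1) with siEWS-FLI at chr17:43483794-43484041 and 108 reads (88.6 to 130) with siNEG at chr17:43483646-43484154. The ratio was 0.0833 (0.0371 to 0.164), the lowest of the 6 shared sites, and the summits lay 10 bases apart. At ETV4 itself, siNEG had 9 reads (4.12 to 17.1) at chr17:43546262-43546518, 49 bases past the higher-coordinate boundary of the gene. With siEWS-FLI, ETV4 had no interval within 10 kb. A weak shared site 159 kb away had 4 reads (1.09 to 10.2) with siEWS-FLI and 7 (2.81 to 14.4) with siNEG. A siEWS-FLI interval of 7 reads at chr17:43389366-43389565 was counted as not shared, although a siNEG interval of 10 reads (4.80 to 18.4) ended 41 bases before it. That siNEG interval overlapped a promoter window of the noncoding gene LINC00910 by 24 bases.

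The DHX8 promoter is shown because both summits of the strongest shared site fall in it (RefSeq, GRCh38.p14, chr17:43483725-43484024, plus strand), with every GGAA or TTCC in capitals.
DHX8: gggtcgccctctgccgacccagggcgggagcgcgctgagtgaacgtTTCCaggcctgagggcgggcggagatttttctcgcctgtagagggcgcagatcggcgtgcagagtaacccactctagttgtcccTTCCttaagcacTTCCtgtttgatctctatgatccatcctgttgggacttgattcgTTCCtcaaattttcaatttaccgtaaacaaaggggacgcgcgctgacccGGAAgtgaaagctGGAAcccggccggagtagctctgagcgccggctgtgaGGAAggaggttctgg
The window of 300 bases holds 7 GGAA cores over both strands and 1 CCGGAAG, a longer ETS-type motif that contains GGAA, at position 234 from the 5′ end. Of 34796 distinct RefSeq promoter windows of this length, 95.5% hold GGAA on either strand, 10.2% hold CCGGAAG and 3.68% hold the tandem GGAAGGAA. The tandem contains GGAA and is not found in this window.

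EWSR1 itself had no interval inside the gene in either library. The gene lies on chromosome 22 (29268268 to 29300521). With siEWS-FLI its window held 2 intervals, each of 4 reads (1.09 to 10.2) and no closer to EWSR1 than 95.7 kb. One lay inside KREMEN1, a gene of Wnt signalling, and the other 4.26 kb from that gene. With siNEG the window held 7 intervals of 4 to 74 reads, and none of the 7 was shared. The nearest, at chr22:29267747-29267946, had 5 reads (1.62 to 11.7), 422 bases before the EWSR1 start and inside RHBDD3, a rhomboid protein gene on the opposite strand. The next nearest, of 12 reads (6.20 to 21.0), lay 5.93 kb from EWSR1 and closer to GAS2L1.

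The strongest siNEG interval of the EWSR1 window was at the start of AP1B1, which encodes a subunit of a clathrin adaptor, 88.0 kb away at chr22:29388081-29388836. It had 74 reads (58.1 to 92.9) and was not called with siEWS-FLI. Given the siNEG local background, the list could have missed a siEWS-FLI pileup as high as 11 reads. The AP1B1 promoter is shown because it holds the summit of the strongest interval called with siNEG alone (RefSeq, GRCh38.p14, chr22:29388521-29388820, minus strand), with GGAA and TTCC in capitals.
AP1B1: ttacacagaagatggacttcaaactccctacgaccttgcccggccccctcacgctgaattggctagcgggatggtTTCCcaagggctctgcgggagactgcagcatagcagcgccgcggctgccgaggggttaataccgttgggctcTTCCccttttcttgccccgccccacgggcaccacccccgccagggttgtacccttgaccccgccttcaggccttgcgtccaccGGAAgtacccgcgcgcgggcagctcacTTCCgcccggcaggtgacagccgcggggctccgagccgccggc
It holds 4 GGAA cores over both strands and 1 CCGGAAG at position 229, and no GGAAGGAA.

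GABPA, which activates nuclear genes of mitochondrial proteins, had the highest siEWS-FLI pileup of the set. The gene lies on chromosome 21 (25734972 to 25772460), and ATP5PF, which encodes a subunit of ATP synthase, starts close by on the opposite strand. It had 15 reads (8.40 to 24.7) with siEWS-FLI at chr21:25734897-25735297 and 85 reads (67.9 to 105) with siNEG at chr21:25734822-25735734. The Poisson intervals of these raw pileups, not scaled for depth, do not overlap, and the ratio was 0.176 (0.0946 to 0.308). Over all shared sites with 20 to 99 siNEG reads the quartiles were 0.162 and 0.310, so this ratio lay within their middle range. The summits lay 129 bases downstream of the GABPA start with siEWS-FLI and 191 with siNEG. The siNEG interval held another summit of 45 reads. The only other interval in the window had 6 siNEG reads (2.2 to 13.1) at MRPL39, a mitochondrial ribosomal protein gene 128 kb away.

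The GABPA promoter is shown because it is the only member promoter met by an interval of both libraries (RefSeq, GRCh38.p14, chr21:25734722-25735021, plus strand), with GGAA and TTCC in capitals.
GABPA: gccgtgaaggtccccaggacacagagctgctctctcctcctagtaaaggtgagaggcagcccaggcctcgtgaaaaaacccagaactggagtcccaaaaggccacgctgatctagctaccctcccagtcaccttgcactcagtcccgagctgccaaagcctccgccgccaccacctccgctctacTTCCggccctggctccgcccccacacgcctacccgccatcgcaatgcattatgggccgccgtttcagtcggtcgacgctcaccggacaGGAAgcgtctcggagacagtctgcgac
It holds 2 GGAA cores over both strands, and the TTCC core is part of a CCGGAAG match on the opposite strand at position 185. There is no GGAAGGAA. The siEWS-FLI interval covers 125 bases of this window and the siNEG interval 200, but both summits lie past its 3′ end, in a promoter window of ATP5PF.

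ELF1, known from lymphoid and widely used promoters, held the only shared site at which the siEWS-FLI pileup was not the lower of the 2. ELF1 lies on chromosome 13 (40931919 to 41061386). The site had 6 reads (2.2 to 13.1) with siEWS-FLI at chr13:41060496-41060695 and 5 reads (1.62 to 11.7) with siNEG at chr13:41060547-41060746, with summits 13 bases apart. The summit lay 745 bases downstream of the ELF1 start site with siEWS-FLI and 758 with siNEG. The ratio was 1.2 (0.305 to 4.97), which at these counts does not separate a higher from a lower level. Over all shared siNEG intervals, 7% had a siEWS-FLI pileup at or above the siNEG pileup. That share covers all siNEG strengths and is not matched to a site of 5 siNEG reads. At such a site only a siEWS-FLI pileup of 4, the fewest reads called, would be lower. A further siEWS-FLI interval of 4 reads (1.09 to 10.2) at chr13:41059953-41060152 ended 394 bases before the siNEG interval.

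The strongest siNEG summit of ELF1 was not called with siEWS-FLI. It had 12 reads (6.20 to 21.0) at chr13:40982805-40983033, 20 bases before a start site inside the gene. Given the siNEG local background, the siEWS-FLI list could have missed no more than 3 reads there. The promoter of that internal start is shown because it is the member promoter that holds both a summit called with siNEG alone and a tandem GGAA (RefSeq, GRCh38.p14, chr13:40982850-40983149, minus strand), with GGAA and TTCC in capitals.
ELF1: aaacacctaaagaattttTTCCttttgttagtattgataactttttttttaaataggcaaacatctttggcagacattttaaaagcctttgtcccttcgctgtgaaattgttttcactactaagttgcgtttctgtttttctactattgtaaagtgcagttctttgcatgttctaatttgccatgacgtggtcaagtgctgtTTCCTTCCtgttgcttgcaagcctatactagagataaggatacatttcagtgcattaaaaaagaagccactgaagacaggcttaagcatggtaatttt
The tandem is GGAAGGAA on the opposite strand, written TTCCTTCC at position 203, and the window holds 3 GGAA cores over both strands and no CCGGAAG.

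**Figure D2:**
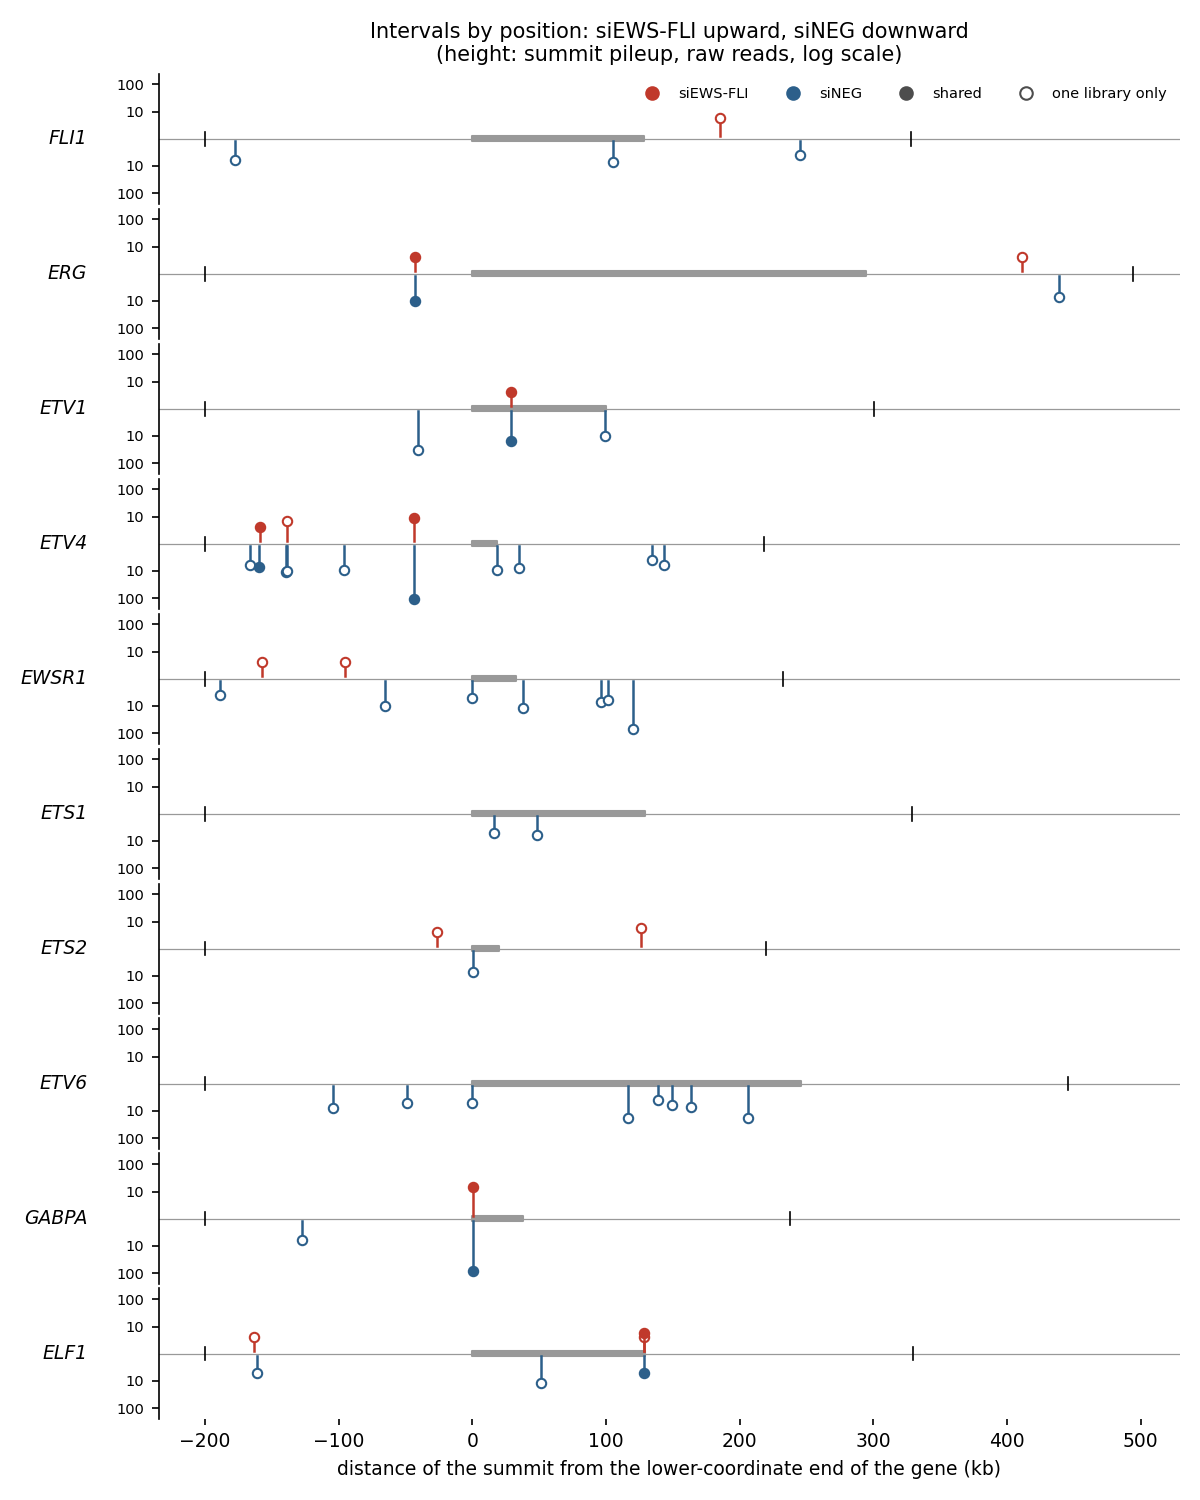
Position of each interval's summit in kb from the lower-coordinate end of each gene (grey bar, gene body; black ticks, ends of the window), with siEWS-FLI upward and siNEG downward and height as summit pileup in raw reads on a log scale. Filled circles are the 6 shared intervals and open circles were called in 1 library; ETV6 has 8 siNEG intervals and no siEWS-FLI interval.

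ETS1, ETS2 and ETV6 shared no interval between the libraries. ETS1, a factor of lymphoid and endothelial cells, lies 97.6 kb from FLI1 and had no siEWS-FLI interval in its window. It had 2 siNEG intervals, both inside the gene, of 6 reads (2.2 to 13.1) and 5 reads (1.62 to 11.7). ETS2 lies 143 kb from ERG. With siEWS-FLI its window held 6 reads (2.2 to 13.1) 106 kb away, inside the noncoding gene ETS2-AS1, and 4 reads (1.09 to 10.2) 26.4 kb away. With siNEG its only interval had 7 reads (2.81 to 14.4) at chr21:38805564-38806097, 67 bases before a start site of ETS2.

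The ETS2 promoter is shown because it holds that summit (RefSeq, GRCh38.p14, chr21:38805679-38805978, plus strand), with TTCC in capitals.
ETS2: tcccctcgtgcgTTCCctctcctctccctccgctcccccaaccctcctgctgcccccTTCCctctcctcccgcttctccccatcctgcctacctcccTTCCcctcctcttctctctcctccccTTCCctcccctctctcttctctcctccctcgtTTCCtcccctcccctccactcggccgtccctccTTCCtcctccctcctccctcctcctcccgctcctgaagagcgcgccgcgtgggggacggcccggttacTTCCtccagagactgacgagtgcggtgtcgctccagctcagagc
Its 7 GGAA cores all lie on the opposite strand, and neither GGAAGGAA nor CCGGAAG is found in it.

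ETV6, a repressor needed in blood formation and a fusion partner in leukaemias, had the most intervals inside the gene. It lies on chromosome 12 (11649674 to 11895377). No siEWS-FLI interval lay within 200 kb of it, and ETS1 was the only other member without one. With siNEG there were 8 intervals, 5 of them inside the gene. The strongest had 19 reads (11.4 to 29.7) at chr12:11855371-11856122, and the next had 18 reads (10.7 to 28.4) at chr12:11766142-11766756. Both lie over 100 kb from the listed start site. Given the siNEG local background, the siEWS-FLI list could have missed as many as 7 and 5 reads at these positions.

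The contrast between the EWSR1 partners and GABPA with ELF1 was not resolved at these counts. Over FLI1, ERG, ETV1 and ETV4, 4 of 18 siNEG intervals were shared (22.2%, 6.41 to 47.6). Over GABPA and ELF1, 2 of 5 were shared (40%, 5.27 to 85.3). The binomial intervals overlap over most of their range. With the siNEG list reduced to its strongest intervals, as many as the siEWS-FLI list holds, the order turned round, to 3 of 4 (75%, 19.4 to 99.4) and 1 of 2 (50%, 1.26 to 98.7). Within 10 kb of the gene, a siEWS-FLI interval was called at ETV1 among the 4 partners and at both GABPA and ELF1. Among all members 3 of 10 had a siEWS-FLI interval within 10 kb, against 27.4% of all genes, 9 of 10 a siNEG interval, against 55.5%, and 3 of 10 a shared one, against 17.3%. ERG was the only member without a siNEG interval within 10 kb. The comparison with all genes was not matched for gene length.

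RefSeq promoter windows, from 250 bases before to 50 after a start, were at hand for 7 of the 10 members, all but ETS1, ETV4 and FLI1. A siEWS-FLI interval met a window of 1 of the 7, GABPA, against 11.5% of all genes with a window. A siNEG interval met a window of 4 of the 7, which were ETS2, ETV1, GABPA and ELF1, against 34.3%. At ETV1 the overlap was at most 16 bases and the summit lay outside the window.

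The median pileup ratio of the 6 shared sites was 0.333, siEWS-FLI over siNEG, with a lowest of 0.0833 and a highest of 1.2, against a median of 0.310 over all 2544 shared siNEG intervals. The ratio falls with the siNEG pileup over the whole list, with medians of 0.571 at 5 to 19 siNEG reads, 0.224 at 20 to 99 and 0.110 at 100 or more. A called siEWS-FLI pileup is at least 4 reads, which keeps the ratio high where siNEG is weak. GABPA, at 0.176, lay inside the middle range of its class (quartiles 0.162 and 0.310), and the DHX8 site of the ETV4 window, at 0.0833, just under that of its class (0.0841 and 0.151). The other 4 sites fall in the class of 5 to 19 siNEG reads, with quartiles of 0.429 and 0.778. There ETV1, at 0.267, and ERG, at 0.4, lay below the lower quartile, the weak ETV4 site, at 0.571, on the median, and ELF1, at 1.2, above the upper quartile. ETV1, ERG and the weak ETV4 site each had 4 siEWS-FLI reads, the fewest called, so their ratios could not have been lower. ELF1 had 5 siNEG reads, and even 4 siEWS-FLI reads would have put its ratio above the upper quartile. Its place there was therefore fixed by the fewest reads called.

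**Figure D3:**
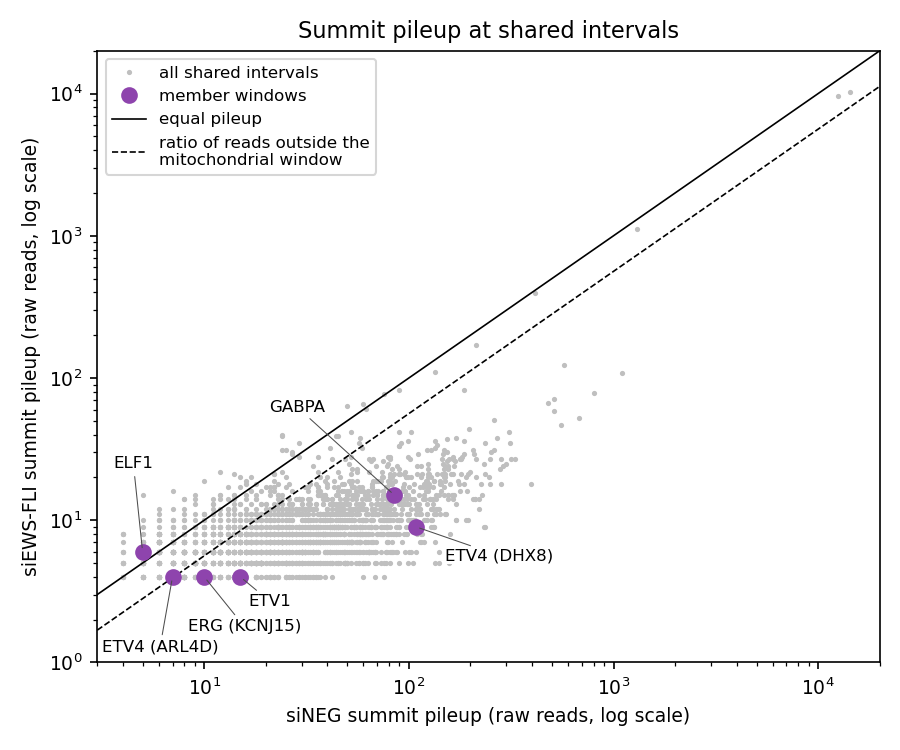
siEWS-FLI summit pileup against siNEG summit pileup (raw reads, log axes) at all 2544 shared siNEG intervals (grey) and the 6 of the member windows (purple, with the nearest gene in brackets where it is not the member). The solid line marks equal pileups and the dashed line the ratio of 0.562; ELF1 lies above the solid line and GABPA and the DHX8 site well below the dashed one.

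With a limit set at the siNEG local background, many siNEG intervals of these windows were too weak to say whether signal was lost. For each of the 33 called with siNEG alone, the siNEG pileup times 0.562 was set against the largest siEWS-FLI pileup that would stay uncalled at that background. The pileup was scaled and the background was not. At all 6 shared sites the siEWS-FLI background was the lower, at 0.5 against 3.64 reads at DHX8 and 0.62 against 5.42 at GABPA. A lower background gives a lower or equal limit, so the count at or under the limit may be too high. In 19 of the 33 (57.6%, 39.2 to 74.5) the product was at or under that limit, against 47.6% of all 13740 siNEG-only intervals. The interval inside FLI1, with a product of 3.93 reads and a limit of 4, was among them, as was the one before EWSR1, with 2.81 and 4. The product exceeded the limit in 14. Several margins were narrow, as at 6.18 reads against 6 in the ETV4 window and 3.37 against 3 inside ETS1. No counting error was put on the product, so narrow margins do not set such intervals apart from the 19. The margin was widest at AP1B1 (41.6 reads against 11), at the intergenic ETV1 site (19.1 against 9), at the 2 strongest of the ETV6 sites (10.1 against 5 and 10.7 against 7) and at the internal ELF1 start (6.74 against 3). The part of depth in these results was not tested, and 0.562 was derived from the peak lists, not counted from reads.

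**Figure D4:**
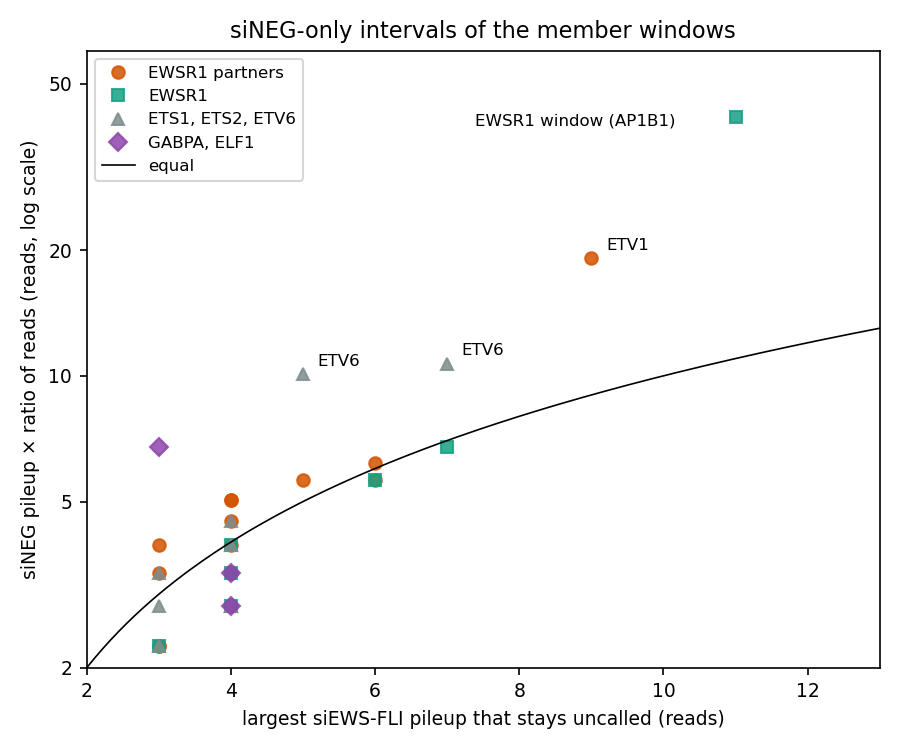
siNEG pileup times the ratio of reads outside the mitochondrial window (reads, log axis) against the largest siEWS-FLI pileup that stays uncalled at the siNEG local background (reads), for the 33 siNEG-only intervals of the member windows; the curve marks equal values, symbols can coincide, and an interval in 2 windows is drawn once. The AP1B1, ETV1 and ETV6 sites stand clear of the curve, and 19 intervals lie on or under it.

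Beyond the members, the ETS family counts 19 other genes here. In this paragraph an end is either boundary of the RefSeq gene, its start or its finish. Within 10 kb, 4 of the 19 ETS genes had a siEWS-FLI interval (27.4% of all genes), 11 a siNEG interval (55.5% of all genes) and 4 a shared one (17.3% of all genes). FEV, another EWSR1 partner, had no siEWS-FLI interval within 10 kb and 8 siNEG reads (3.45 to 15.8) 685 bases from its end. Taking the strongest site of each gene, the highest siNEG pileups were 76 reads (59.9 to 95.1) in the ETV2 window, at the start of COX6B1 and not called with siEWS-FLI, and 35 (24.4 to 48.7) in the ERF window. The ERF site lay nearest to GSK3A, and siEWS-FLI had 8 reads (3.45 to 15.8) there. ETV2 also had 43 siNEG reads (31.1 to 57.9) 312 bases from its own end, and ETV3 had 23 (14.6 to 34.5) 126 bases from its own, neither shared. That ETV3 interval overlapped an ETV3 promoter window, and the ETV2 interval overlapped no promoter window. ELK1, a factor that joins serum response factor, had 4 reads (1.09 to 10.2) with siEWS-FLI and 25 (16.2 to 36.9) with siNEG at its end. There the siNEG interval overlapped an ELK1 promoter window. ETV3 had 6 reads (2.2 to 13.1) with siEWS-FLI and 24 (15.4 to 35.7) with siNEG, 10194 bases from the gene end at the siNEG summit. ETV5, the third PEA3 factor and named after its values were seen, had nearly equal pileups at its end, with 9 reads (4.12 to 17.1) with siEWS-FLI and 11 (5.49 to 19.7) with siNEG.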

How the data were processed

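CUT&Tag libraries were amplified by 14 and then 20 PCR cycles, per the labels' protocols. The submitters' processing notes list hg38, MACS2 2.2.9.1, Bowtie2 2.4.5 and Trim Galore 0.6.6 with no roles, and nothing on a control library or duplicates was found in the labels. Peaks were deposited separately for the 2 libraries. The deposited fold is a linear ratio over local background, and −log10 p- and q-values were deposited beside it; these are the authors' values. The peak score deposited in the lists was left aside. The 6559 siEWS-FLI and 17313 siNEG lines were limited to chromosomes 1 to 22, X and Y, and lines sharing an interval were merged, keeping the highest −log10 q.

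The summit pileup was computed as the whole number solving both the deposited fold (pileup plus 1 over background plus 1) and −log10 p (upper Poisson tail). It solved 100% of these lines, with a tolerance of 0.001 in log10 p, growing in proportion above 10, and was tested on simulated data. The library-wide background was 0.239 reads with siEWS-FLI and 0.348 with siNEG. With an assumed genome of 2700000000 bases this gives 3229661 and 4702761 reads, of which 1629620 and 1853915 lay in a 10000-base mitochondrial window. A pileup counted as uncalled below −log10 p of 4.49, the lowest deposited with siEWS-FLI. RefSeq gene positions carry no exons, so exons and introns were not told apart.

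All 10 members are named, with the strongest interval of each library, shared intervals within 10 kb and siEWS-FLI intervals inside the gene; of the other ETS genes, FEV and the 4 with the highest siNEG pileup within 10 kb are named, and any further gene is marked as chosen after its values were seen. Some planned results are not reported here. Members and lists were chosen with earlier results of these data known. The planned protein comparison was not run. Python 3.11.15, SciPy 1.17.1, pandas 2.3.3 and numpy 2.4.6 were used.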

Additional observations from a re-analysis of the deposited data

How the results depend on the processing

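Of 50 recomputed values under 9 alternative settings, 37 stayed within 1.5 times the reported count, within the reported binomial interval, or within the range of the 6 reported ratios. Settings that only drop sites could not move the median ratio out of that range, and all 9 of its values counted as within. The binomial interval for GABPA and ELF1, 5.27 to 85.3, was so wide that all 9 of their shares also stayed inside. The 37 is therefore not a measure of stability. The counts of intervals moved with the window and threshold. The siEWS-FLI count of 14 became 7 within 50 kb, 4 within 10 kb, 2 at −log10 q of at least 5, 2 among intervals wider than 200 bases and 6 where the member is the nearest gene. The siNEG count of 39 became 23, 18, 18, 25 and 20 under the same settings, and 9 when only as many of the strongest siNEG intervals were kept as siEWS-FLI has. In that setting the shared siNEG share rose to 44.4% over all members and 75% over FLI1, ERG, ETV1 and ETV4; it removes weak siNEG intervals by construction. The median ratio ran from 0.13 to 0.571. No paired analysis was possible because there is 1 library per group, and for the same reason no replicate could be left out. Depth is one limit: 8 of the 14 siEWS-FLI intervals rest on 4 reads.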
